A study of Mus musculus with 30 samples.

Results

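Transcripts of 37 genes of the lysosome and of autophagy were followed in 3T3-L1 cells, a mouse preadipocyte line that turns into fat cells in adipogenic medium. The genes were chosen by name, 22 for the lysosome and 15 for autophagy, out of 54232 genes in the count table. All 37 were among the 20139 genes that held more than 14 counts over the 30 libraries, and the one with the fewest counts, Tfeb, held 5245. All cells had been kept for 5 days in medium with insulin, dexamethasone, isobutylmethylxanthine and indomethacin. There were 6 groups with 5 libraries each. Control cells received this medium alone. The other groups received pNaKtide (0.7 µM), indoxyl sulfate (IS, 100 µM), IS + pNaKtide, oxidized low density lipoprotein (oxLDL, 50 µg/mL) or oxLDL + pNaKtide. IS is a solute that builds up in renal failure, oxLDL is a source of oxidant stress, and pNaKtide is a cell permeant peptide made to interrupt signaling from the Na,K-ATPase through Src. The study asked how the first pair of agents changed adipocyte transcripts, and what pNaKtide did to those changes. The sample labels give 5 days of treatment, whereas the methods give 2 days with a dose every 24 h. No source says that the 5 replicates were separate cultures, so the p-values measure the spread between these libraries, which may be technical.

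Lysosomes are the acidic compartment in which proteins, sugars and lipids are broken down, by cathepsins, glycosidases and their cofactors, in a lumen acidified by the V-ATPase proton pump. In autophagy, the ULK complex and the lipid kinase complex start a membrane around cargo, the ATG conjugation enzymes attach ATG8 proteins to that membrane, and receptors such as p62 bring cargo to it before it fuses with the lysosome. The transcription factors TFEB and TFE3 bind a DNA element built around CACGTG in the promoters of many of these genes, and in fat cells the pathway takes part in the turnover of lipid droplets and mitochondria.

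The promoters show which of these genes carry the letters of that element. RefSeq promoter windows, from 250 bases before to 50 bases after each start (GRCm38.p6), were at hand for 30 of the 37 genes, and none for Map1lc3a, Becn1, Ctsb, Atg12, Atp6v1h, Atg16l1 and Rb1cc1. CACGTG, which reads the same on both strands, was in a window of 9 of 20 lysosomal genes (45.0%) and 3 of 10 autophagy genes (30%), against 2187 of 27025 genes in the table (8.09%). The longer GTCACGTG, searched on both strands and holding CACGTG within it, was in 35.0% of the lysosomal genes, 20% of the autophagy genes and 2.55% of all genes. The first 6 sequences that follow are the stretches of 120 bases that end just before the RefSeq or the GENCODE start of the gene, whichever lies farther upstream, where they hold CACGTG. Ctsd is not shown because fewer than 120 bases of its window lie before that start. Lamp2 is added because it was among the genes that differed most and had none. Capitals mark CACGTG. The sequences lie at chr8:13159041-13159160 (plus strand), chrX:134601126-134601245 (minus strand), chr9:114400956-114401075 (plus strand), chr8:3500337-3500456 (plus strand), chr16:45158665-45158784 (plus strand), chr10:44268219-44268338 (plus strand) and chrX:38456461-38456580 (minus strand).
Lamp1: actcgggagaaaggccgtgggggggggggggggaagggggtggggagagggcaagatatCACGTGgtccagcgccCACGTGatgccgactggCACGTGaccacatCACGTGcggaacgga
Gla: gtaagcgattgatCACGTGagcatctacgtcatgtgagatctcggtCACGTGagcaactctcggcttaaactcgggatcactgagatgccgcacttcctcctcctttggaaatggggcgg
Glb1: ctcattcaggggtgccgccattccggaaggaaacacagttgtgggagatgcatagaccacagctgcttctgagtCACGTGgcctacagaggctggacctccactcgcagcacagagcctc
Mcoln1: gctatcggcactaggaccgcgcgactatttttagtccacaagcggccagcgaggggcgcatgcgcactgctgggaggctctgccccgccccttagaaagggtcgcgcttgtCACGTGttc
Atg3: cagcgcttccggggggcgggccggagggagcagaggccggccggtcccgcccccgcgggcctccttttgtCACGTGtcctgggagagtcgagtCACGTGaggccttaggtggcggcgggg
Atg5: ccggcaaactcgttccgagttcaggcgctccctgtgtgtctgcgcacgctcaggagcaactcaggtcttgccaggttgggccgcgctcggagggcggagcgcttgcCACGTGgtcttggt
Lamp2: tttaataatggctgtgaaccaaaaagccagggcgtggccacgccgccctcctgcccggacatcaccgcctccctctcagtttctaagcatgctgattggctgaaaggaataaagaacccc
Lamp1 held CACGTG 4 times in this stretch, Gla and Atg3 held it 2 times each, and Glb1, Mcoln1 and Atg5 held it 1 time. A match in these letters is a description and does not show that a factor binds there.

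Between 6945498 and 15159877 reads were counted on genes per library, with a median of 11524210. Levels are given as TMM-normalized CPM, the counts of a gene relative to the effective size of its library. The summed level of 10 adipocyte markers had a median of 15533 CPM in control libraries, though Lep among them had a mean of 0.209 CPM. That of 8 preadipocyte markers had a median of 5334 CPM. Of 8 macrophage markers Ptprc and Itgam had no count in any library, and Cd14 was the highest, with a mean of 5.52 CPM in control. In describing how RNA was prepared, the labels speak of adipose tissue. A pair of libraries stood apart from their groups and lay toward another group. On the first principal component of log2 CPM, which held 64.4% of the variance, control replicate 1 scored -25.8, within the range of the oxLDL libraries (-41.9 to -14.7), whereas the other 4 control libraries scored 6.48 to 29.9. IS replicate 4 scored 28.2, within the range of those 4 control libraries, whereas the other 4 IS libraries scored -36.7 to -23.2. Control replicate 1 lay within the range of these 4 IS libraries as well. Replicate 4 with oxLDL + pNaKtide scored 67.5, above every other library, whereas the rest of its group scored 14.5 to 33.2. In addition, 5 pairs of libraries of the same group lay close together, control 2 and 4, pNaKtide 1 and 2, pNaKtide 4 and 5, IS 1 and 2, and IS + pNaKtide 3 and 4. A chi-square test of their counts gave 1.28 to 1.94 per degree of freedom, above sampling noise, against a median of 10.9 for the other 55 pairs, and no source says whether such pairs share a culture. With each pair summed to 1 library, 23 of the 37 genes passed for oxLDL against control (24.2% of all genes) and 28 for oxLDL + pNaKtide against oxLDL (47.4%). Control replicate 1 and IS replicate 4 were kept, and results that rest on them are also given without them. They were singled out because they lay toward another group, so that leaving them out favours larger differences of their groups from that group by construction. Whether either library carries a wrong label was not tested, and if one did, every value against control or IS would change in meaning.

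Per kilobase of transcript, the 37 genes spanned a wide range in control cells. Psap, the precursor of the saposins that help enzymes reach lipids, was the highest at 887 ± 102 FPKM (SD, n = 5), ahead of Lamp1 at 381 ± 24.2 FPKM and Ctsd at 312 ± 41.6 FPKM. The lowest were Tfeb at 2.91 ± 0.527 FPKM and Rb1cc1 at 1.99 ± 0.650 FPKM. Across the 6 groups, 27 of the 37 genes differed in edgeR's quasi-likelihood test at a Benjamini-Hochberg (BH) adjusted p-value under 0.1, beside 45.1% of all genes tested.

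With oxLDL, most lysosomal genes that differed from control were downregulated, and so were 3 of the 4 ATG8 genes and the receptor Sqstm1. In edgeR's test 25 of the 37 genes passed the BH-adjusted threshold, 5 upregulated and 20 downregulated, whereas 36.0% of all genes tested passed, 18.1% upregulated and 18.0% downregulated. Of the 22 lysosomal genes 2 were upregulated and 13 downregulated, and of the 15 autophagy genes 3 were upregulated and 7 downregulated. The median log2 fold change over the 37 genes was -0.21, beside 0.04 over all genes tested. The groups did not overlap for 6 genes, Lamp2, Rb1cc1 and Atg12 above control and Man2b1, Grn and Ulk1 below it, which compares with 8.35% of all genes (4.83% above, 3.52% below). Scaling by library size alone, which moved the median of all genes from 0.04 to 0.17, gave 8 upregulated and 16 downregulated members, beside 24.6% of all genes upregulated and 11.3% downregulated. The RNA of a whole culture does not tell fewer cells of a type from less RNA per cell.

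When pNaKtide was given with oxLDL and compared with oxLDL alone, 28 of the 37 genes passed, 20 upregulated and 8 downregulated, beside 48.3% of all genes (22.1% upregulated, 26.1% downregulated). Of the lysosomal genes 14 were upregulated and 3 downregulated, and of the autophagy genes 6 were upregulated and 5 downregulated. The median log2 fold change was 0.23 over the 37 genes and -0.09 over all genes. The groups did not overlap for 19 genes, 14 above and 5 below oxLDL, against 28.4% of all genes (13.6% above, 14.8% below). Under scaling by library size alone the split was 13 upregulated and 15 downregulated, with a median of -0.30 over all genes, of which 13.4% were upregulated and 38.1% downregulated. The 2 comparisons share the 5 oxLDL libraries, so that opposite signs between them are no independent result, and their values are given side by side.

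**Figure D1:**
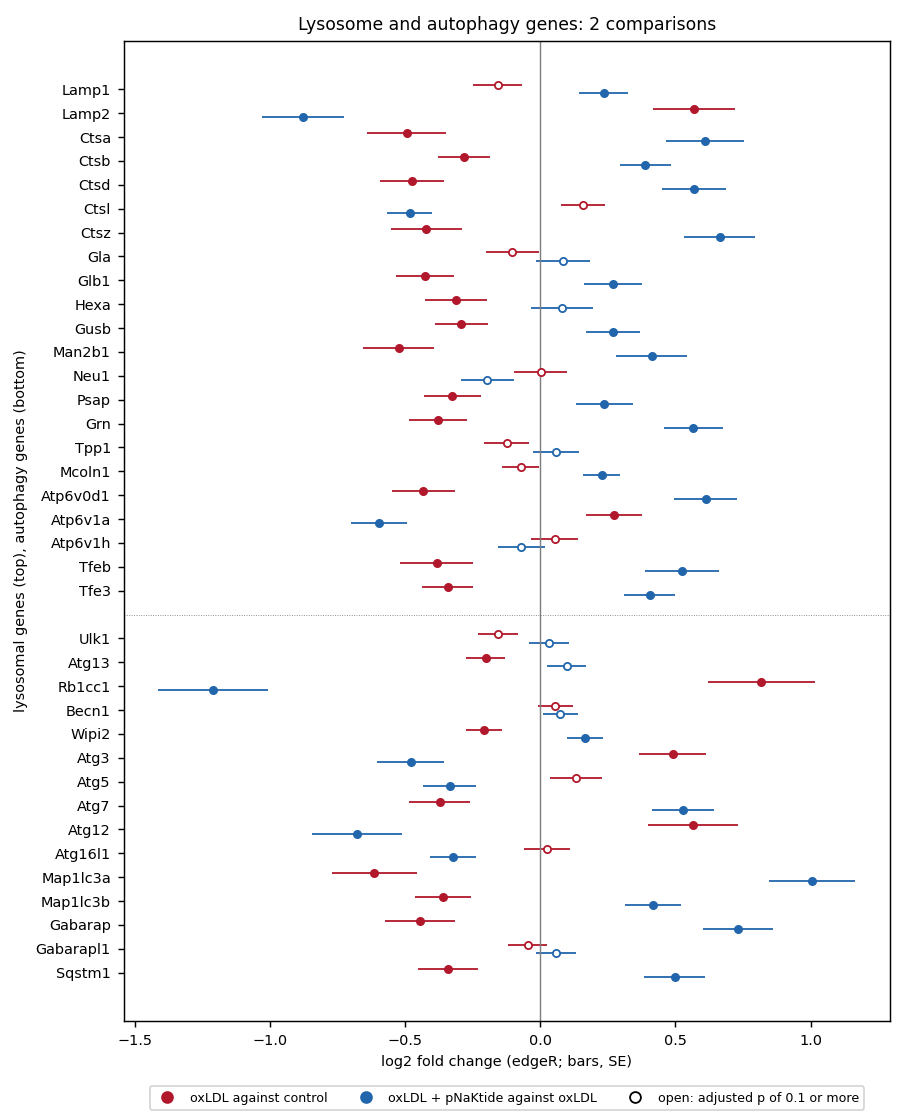
Log2 fold changes (x axis) of the 37 genes (y axis, lysosomal above, autophagy below) for oxLDL against control in red and oxLDL + pNaKtide against oxLDL in blue, with bars for the SE and open circles for an adjusted p-value of 0.1 or more. Rb1cc1 has the largest values, 0.82 in red and -1.21 in blue, and Map1lc3a lies the other way, with -0.61 in red and 1.01 in blue.

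Of the genes for lysosomal membrane proteins, Lamp2 was upregulated by oxLDL and Lamp1 did not pass. LAMP-2 is needed for the fusion of autophagosomes and for the uptake of single proteins into the lysosome. Lamp2 (ENSMUSG00000016534, chrX:38401357-38456454 on the minus strand, GRCm38) was at 386, 275, 355, 257 and 238 CPM in control replicates 1 to 5. It was at 449, 504, 429, 389 and 468 CPM with oxLDL, and at 276, 309, 246, 156 and 230 CPM with oxLDL + pNaKtide. All oxLDL libraries lay above all control libraries, though at the closest by 389 against 386 CPM, and above all libraries with both agents. Lamp2 was upregulated by oxLDL (log2 fold change 0.57, SE 0.15, edgeR adjusted p = 0.0107) and was lower with oxLDL + pNaKtide than with oxLDL (-0.88, adjusted p = 5.25e-05). With each library's trend over gene length and GC content removed, these values turned to -0.12 and 0.07, and neither was called. Lamp1, which encodes the most abundant protein of the same family, was at 942, 1071, 1033, 1110 and 998 CPM in control, at 891, 872, 1033, 957 and 869 CPM with oxLDL, and at 1091, 1077, 958, 1196 and 1117 CPM with both. The 3 groups overlapped. Lamp1 did not pass for oxLDL against control (-0.16, edgeR adjusted p = 0.202) and was upregulated with pNaKtide (0.23, adjusted p = 0.0374), but was not called for the latter with library size scaling (0.01) or with the trend over length and GC content removed (0.14).

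Of the 5 cathepsin genes, which encode the proteases of the lysosome, oxLDL downregulated 4 and upregulated none, and pNaKtide with oxLDL upregulated the same 4 (Ctsa, Ctsb, Ctsd and Ctsz) and downregulated Ctsl. Ctsd, the aspartic protease of the group, was at 580, 804, 737, 836 and 755 CPM in control, at 510, 490, 605, 579 and 490 CPM with oxLDL and at 724, 722, 740, 929 and 852 CPM with both. The oxLDL range overlapped control through control replicate 1, and lay below all libraries with both agents. The log2 fold change was -0.47 with oxLDL (edgeR adjusted p = 0.00894) and 0.57 with pNaKtide (adjusted p = 0.000309). Ctsz, a carboxypeptidase, was at 66.1, 61.3, 67.4, 75.5 and 59.2 CPM with oxLDL and at 96.6, 92.0, 98.2, 127 and 108 CPM with both, and the 2 groups did not overlap. Its log2 fold change of 0.66 (edgeR adjusted p = 0.000184) was the largest increase among the lysosomal genes in that comparison. Ctsl, a cysteine protease, was at 204, 245, 237, 240 and 229 CPM in control, at 262, 238, 277, 262 and 249 CPM with oxLDL and at 173, 181, 210, 187 and 171 CPM with both. Every library with both agents lay below every oxLDL library, and 1 of them lay within the control range. Ctsl fell by 0.48 on the log2 scale against oxLDL (edgeR adjusted p = 4.84e-05), whereas its 0.16 for oxLDL against control did not pass (adjusted p = 0.152). Reads of Ctsd and Ctsl are uncertain where Gm49369 and Gm49230 overlap them on the same strand.

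Among the 6 glycosidase genes, which encode enzymes that trim sugars from glycoproteins and glycolipids, oxLDL downregulated Glb1, Hexa, Gusb and Man2b1, while Gla (-0.10) and Neu1 (0.00) did not pass. Man2b1, the lysosomal alpha-mannosidase, was at 147, 199, 176, 196 and 185 CPM in control, at 117, 121, 132, 138 and 121 CPM with oxLDL and at 160, 148, 131, 200 and 197 CPM with both. The oxLDL libraries lay below all control libraries, and replicate 3 with both agents lay within their range. Its log2 fold change was -0.52 (edgeR adjusted p = 0.00899), the largest decrease of a lysosomal gene with oxLDL, and 0.41 with pNaKtide (adjusted p = 0.0112), the latter at 0.18 and not called under library size scaling. Glb1 and Gusb were also upregulated with pNaKtide (0.27 each), but neither under library size scaling (0.04 each), and Glb1 was not called without oxLDL replicate 2 or replicate 4 with both agents (0.23 each). Hexa did not pass (0.08). The call for Hexa in oxLDL (-0.31) was lost without control replicate 2 or 4 or oxLDL replicate 2 or 5, with values of -0.25 to -0.28 there, and that for Gusb (-0.29) without control replicate 2 (-0.24). Of the cofactors, peptidases and channels, oxLDL downregulated Psap (-0.33) and Grn (-0.38), the progranulin gene, and neither Tpp1 (-0.12) nor Mcoln1 (-0.07), which encodes a calcium channel of the lysosome, passed. With pNaKtide Psap (0.24), Grn (0.57) and Mcoln1 (0.23) were upregulated. The call for Psap was lost without oxLDL replicate 1, 2 or 5 or replicate 4 or 5 with both agents, at 0.18 to 0.22, and Psap (0.01) and Mcoln1 (0.0015) were not called under library size scaling.

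The 3 V-ATPase subunit genes took 3 courses. Atp6v0d1 of the membrane sector was downregulated by oxLDL (-0.43, edgeR adjusted p = 0.011) and upregulated with pNaKtide (0.61, adjusted p = 0.000132). Atp6v1a, the catalytic subunit, was at 218, 217, 259, 217 and 228 CPM in control, at 275, 280, 287, 257 and 277 CPM with oxLDL and at 207, 209, 158, 142 and 193 CPM with both. Libraries with both agents lay below all of control and all of oxLDL. It was upregulated by oxLDL (0.27, edgeR adjusted p = 0.0463; 0.26 and not called without control replicate 2 or 4) and downregulated with pNaKtide (-0.60, adjusted p = 5.41e-05). Atp6v1h passed in neither (0.05 and -0.07).

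Both transcription factor genes were downregulated by oxLDL and upregulated with pNaKtide. Tfeb was at 13.3, 18.2, 14.5, 16.5 and 21.0 CPM in control, at 11.3, 13.2, 12.2, 15.4 and 11.8 CPM with oxLDL and at 16.1, 16.8, 19.6, 20.9 and 18.8 CPM with both. The oxLDL libraries overlapped control and lay below every library with both agents. Its log2 fold changes were -0.38 (edgeR adjusted p = 0.0355) and 0.53 (adjusted p = 0.00244), and the former was -0.29 and not called without control replicate 5. Tfe3 was at 96.4, 112, 94.4, 124 and 113 CPM in control, at 87.4, 78.5, 81.3, 94.4 and 84.0 CPM with oxLDL and at 111, 109, 99.1, 124 and 122 CPM with both. The highest oxLDL library reached the lowest control library, both at 94.4 CPM, and all oxLDL libraries lay below those with both agents. The log2 fold changes were -0.34 (edgeR adjusted p = 0.0117) and 0.41 (adjusted p = 0.000866). Of the related factors, Mitf was not called with oxLDL against control and was downregulated with pNaKtide (-0.80, edgeR adjusted p = 0.00386), at 6.70 ± 1.26 CPM with oxLDL and 3.76 ± 1.44 CPM with both agents (SD, n = 5).

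In the ULK complex, which starts autophagy, the scaffold gene Rb1cc1 (FIP200; ENSMUSG00000025907, chr1:6206197-6276648 on the plus strand) had the largest log2 fold changes of the 37 genes with oxLDL and with pNaKtide added to oxLDL, before any correction for length and GC content. It was at 45.3, 23.3, 32.0, 21.7 and 25.5 CPM in control, at 50.0, 59.4, 46.9, 45.4 and 59.1 CPM with oxLDL and at 24.6, 28.1, 28.3, 10.4 and 20.04 CPM with both. The lowest oxLDL library lay just above control replicate 1, well above the other 4 control libraries and above all libraries with both agents. Rb1cc1 was upregulated by oxLDL (0.82, SE 0.20, edgeR adjusted p = 0.00836) and downregulated with pNaKtide (-1.21, SE 0.20, adjusted p = 4.53e-05). With the trend over length and GC content removed, it was at 0.06 and -0.16 and no longer called. Ulk1, the kinase, was at 85.7, 77.8, 75.5, 80.4 and 82.9 CPM in control, at 73.5, 73.2, 67.2, 74.9 and 72.3 CPM with oxLDL and at 68.9, 71.2, 72.4, 70.0 and 86.5 CPM with both. Although oxLDL and control did not overlap, Ulk1 did not pass (-0.16, edgeR adjusted p = 0.117), and it was 0.03 with pNaKtide. Atg13 was downregulated by oxLDL (-0.20, edgeR adjusted p = 0.0368; -0.18 and not called without control replicate 5) and did not pass with pNaKtide (0.10). Of the next step, Becn1 of the lipid kinase complex passed in neither comparison (0.06 and 0.07). Wipi2, which reads the lipid made by that complex, was downregulated by oxLDL (-0.21) and upregulated with pNaKtide (0.17). Under library size scaling neither was called (-0.08 and -0.06), and the latter was also not called without oxLDL replicate 5 (0.14).

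Of the 5 conjugation genes, oxLDL upregulated Atg3 and Atg12 and downregulated Atg7, while pNaKtide with oxLDL downregulated Atg3, Atg5, Atg12 and Atg16l1 and upregulated Atg7. Atg12, the ubiquitin-like tag that is joined to ATG5, was at 48.1, 27.9, 39.8, 30.6 and 34.4 CPM in control, at 52.2, 59.2, 50.0, 48.7 and 57.3 CPM with oxLDL and at 30.8, 32.3, 51.9, 25.2 and 26.2 CPM with both. The oxLDL libraries lay above all control libraries, and replicate 3 with both agents lay within their range. The log2 fold changes were 0.56 (edgeR adjusted p = 0.015) and -0.68 (adjusted p = 0.00153). Atg3, the enzyme that passes ATG8 to the lipid, changed by 0.49 and -0.48, Atg7, the enzyme that activates both tags, by -0.37 and 0.53.

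Of the 4 ATG8 genes, whose products mark the autophagosome membrane, Map1lc3a, Map1lc3b and Gabarap were downregulated by oxLDL and upregulated with pNaKtide, and Gabarapl1 passed in neither (-0.05 and 0.06). Map1lc3a (ENSMUSG00000027602, chr2:155276297-155278073 on the plus strand) was at 61.0, 109, 92.7, 110 and 100.2 CPM in control, at 58.3, 56.8, 69.9, 71.6 and 53.0 CPM with oxLDL and at 111, 107, 112, 163 and 129 CPM with both. Only control replicate 1 lay within the oxLDL range, and every library with both agents lay above it. Its log2 fold changes were -0.61 (edgeR adjusted p = 0.00971) and 1.01 (adjusted p = 2.63e-05). Before any correction for length and GC content, these were the largest of their sign among the 37 genes. Map1lc3b was at 159, 205, 193, 219 and 203 CPM in control, at 149, 138, 158, 177 and 140 CPM with oxLDL and at 200, 181, 184, 246 and 207 CPM with both. Control replicate 1 again lay within the oxLDL range, and the libraries with both agents lay above it. Its changes were -0.36 (edgeR adjusted p = 0.0142) and 0.42 (adjusted p = 0.00169). Gabarap was at 277, 252, 328, 323.5 and 251 CPM with oxLDL and at 465, 434, 402, 593 and 486 CPM with both, without overlap, and changed by -0.44 and 0.73. Sqstm1, the gene of the receptor p62, was at 454, 626, 555, 658 and 614 CPM in control, at 429, 418, 502, 533 and 413 CPM with oxLDL and at 642, 610, 544, 756 and 687 CPM with both. It showed the same order, with control replicate 1 within the oxLDL range and no overlap of oxLDL with both agents. It was downregulated by oxLDL (-0.34, edgeR adjusted p = 0.024) and upregulated with pNaKtide (0.50, adjusted p = 0.00064).

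**Figure D2:**
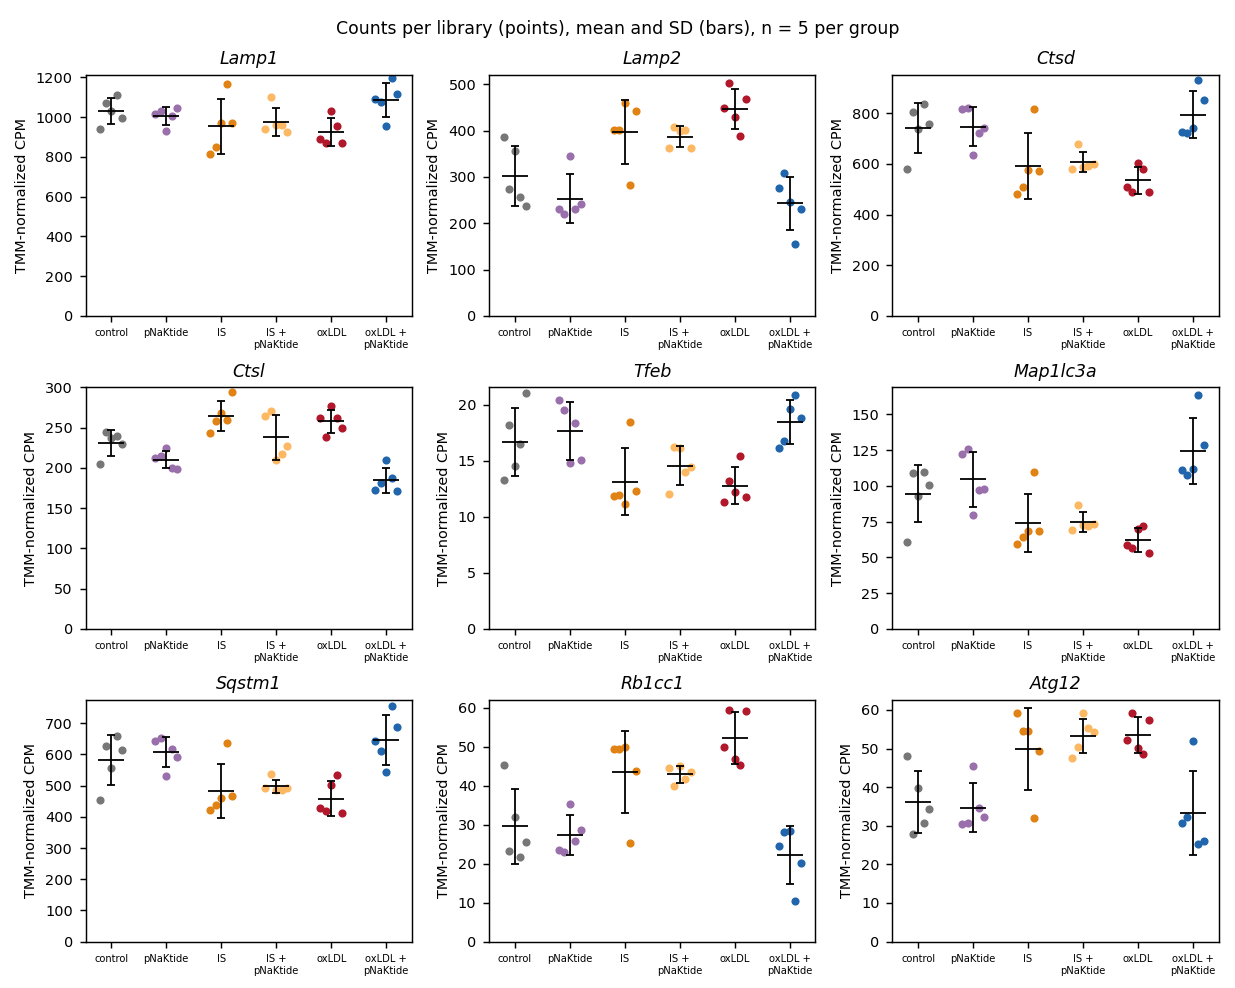
TMM-normalized CPM (y axis, from 0) of 9 of the genes in each of the 30 libraries (points) by group (x axis), with the mean and SD of the 5 libraries in black. Lamp2, Rb1cc1 and Atg12 are higher and Map1lc3a, Ctsd and Sqstm1 lower with oxLDL than in most control libraries. For these genes control replicate 1, the leftmost grey point, lies toward the oxLDL libraries and toward most IS libraries.

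These directions went with the base composition of the transcripts. The 5 members upregulated by oxLDL had a median GC content of 44.3% (39.7 to 46.0%), the 20 downregulated members 54.3% (49.2 to 63.1%) and the 12 that did not pass 49.9%. All genes showed the same, with medians of 44.0%, 54.8% and 50.1%. With pNaKtide, the medians were 54.3% for the 20 upregulated and 44.7% for the 8 downregulated members. When the trend of each library over gene length and GC content was removed, 14 of the 25 calls for oxLDL remained in their direction, and 4 members were upregulated and 13 downregulated, beside 18.0% of all genes called. Rb1cc1 went from 0.82 to 0.06, Lamp2 from 0.57 to -0.12 and Atp6v1a from 0.27 to 0.01, and Ctsz, Hexa, Psap, Grn, Tfeb, Atg13, Wipi2 and Sqstm1 were no longer called. Ctsa, Ctsb, Ctsd, Glb1, Gusb, Man2b1, Atp6v0d1, Tfe3, Atg7, Map1lc3a, Map1lc3b and Gabarap remained downregulated, Map1lc3a at -0.18 and Man2b1 at -0.44, and Atg3 (0.22) and Atg12 (0.29) remained upregulated. Neu1 and Gabarapl1, upregulated, and Tpp1, downregulated, were called only after the removal. For pNaKtide with oxLDL, 19 of the 28 calls remained, with 20 members upregulated and 7 downregulated beside 35.2% of all genes. Called only after the removal were Gla, Tpp1, Atp6v1h and Becn1 as upregulated and Hexa, Neu1, Ulk1 and Gabarapl1 as downregulated. Rb1cc1 (-0.16), Lamp2 (0.07) and Ctsl (-0.05) were no longer called, as were Lamp1, Glb1, Psap, Mcoln1, Atg3 and Atg5, while Map1lc3a was at 0.35, Gabarap at 0.57 and Sqstm1 at 0.31. Whether the trend arose in the cells or in the making of the libraries was not tested.

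**Figure D3:**
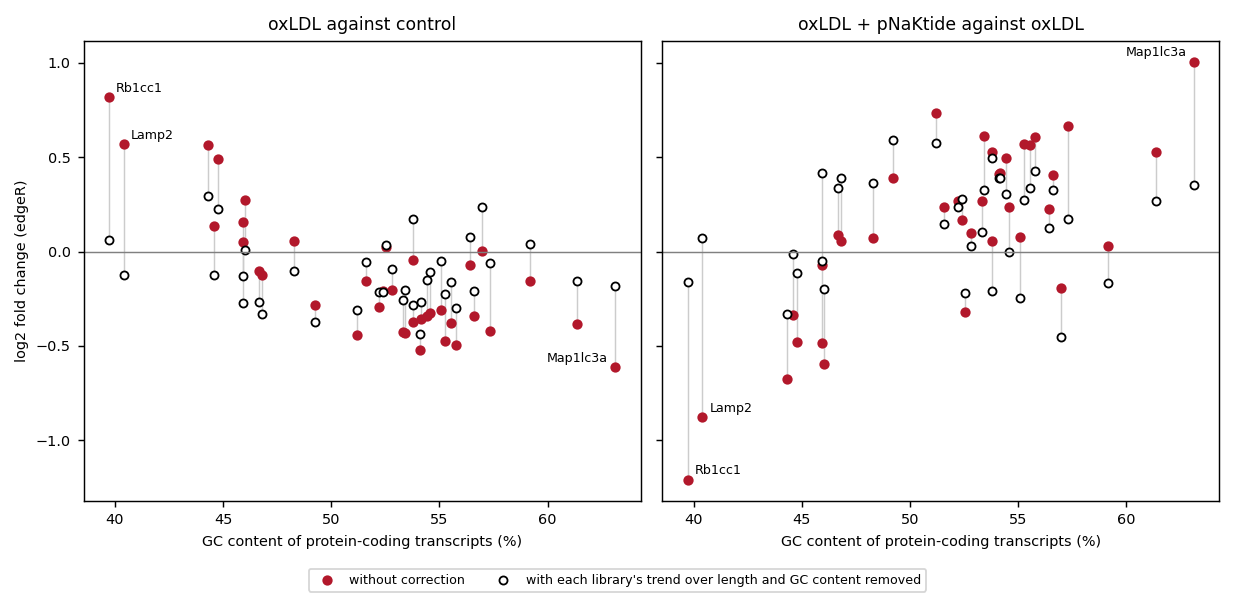
Log2 fold change (y axis) of each of the 37 genes against the GC content of its protein-coding transcripts in percent (x axis), for oxLDL against control on the left and oxLDL + pNaKtide against oxLDL on the right, before (red) and after (open) removal of each library's trend over length and GC content. Rb1cc1 and Lamp2, at the lowest GC content, move from 0.82 and 0.57 to 0.06 and -0.12 on the left, and Map1lc3a, at the highest, from 1.01 to 0.35 on the right.

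With IS, 1 member was upregulated and 1 downregulated in edgeR's test, beside 7.94% of all genes (4.45% upregulated, 3.49% downregulated). Atg12 was at 59.3, 54.5, 54.6, 31.9 and 49.4 CPM with IS, so that replicate 4 alone lay within the control range (27.9 to 48.1 CPM). Its log2 fold change of 0.47 had an edgeR adjusted p of 0.0989. Atg13 was at 73.8, 71.4, 72.9, 84.0 and 71.8 CPM, and again replicate 4 lay apart from the rest, within the control range of 74.5 to 92.7 CPM. It changed by -0.21 (edgeR adjusted p = 0.095). Both calls lie close to the threshold, and the call for Atg12 was lost in most of the fits that left out a single library, as was that for Atg13. With the trend over length and GC content removed, Atg12 (0.26) and Atg13 (-0.14) were not called, and Mcoln1 (0.19) was the 1 member called, beside 4.18% of all genes. For none of the 37 genes were IS and control free of overlap (1.81% of all genes), and 16 of them had an unadjusted p under 0.05, as had 25.0% of all genes. Scaling by library size alone called 6 upregulated and no downregulated member, beside 10.6% of all genes upregulated and 2.07% downregulated. DESeq2 called 13 members, Atg12 and Atg13 among them, and the share of all genes that it called is not given here. With the 5 close pairs of libraries summed, edgeR's test called no member for IS against control, and 0.00993% of all genes.

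The library that stood apart decided much of the comparison with IS. Map1lc3a was at 59.0, 64.2, 68.2 and 68.5 CPM in IS replicates 1, 2, 3 and 5 and at 109.5 CPM in replicate 4, Rb1cc1 at 49.3, 49.3, 49.8 and 43.8 against 25.3 CPM, Lamp2 at 402, 402, 459 and 443 against 283 CPM, and Sqstm1 at 421, 437, 459 and 466 against 636 CPM. Replicate 4 lay on the control side of the other 4 for each of these genes. Without control replicate 1, 19 members passed (33.2% of all genes), without IS replicate 4, 24 (34.5%), and without both, 25, of which 4 were upregulated and 21 downregulated, while the share of all genes went from 7.94% to 45.4%. Without both, Rb1cc1 was at 0.91 (edgeR adjusted p = 0.000153), Lamp2 at 0.60, Atg12 at 0.72, Map1lc3a at -0.67, Ctsd at -0.55 and Sqstm1 at -0.46. For oxLDL against control the same step gave 5 upregulated and 21 downregulated members, all 25 earlier calls among them, with 47.6% of all genes called. For oxLDL + pNaKtide against oxLDL it gave 20 upregulated and 9 downregulated members, with 50.7% of all genes called.

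**Figure D4:**
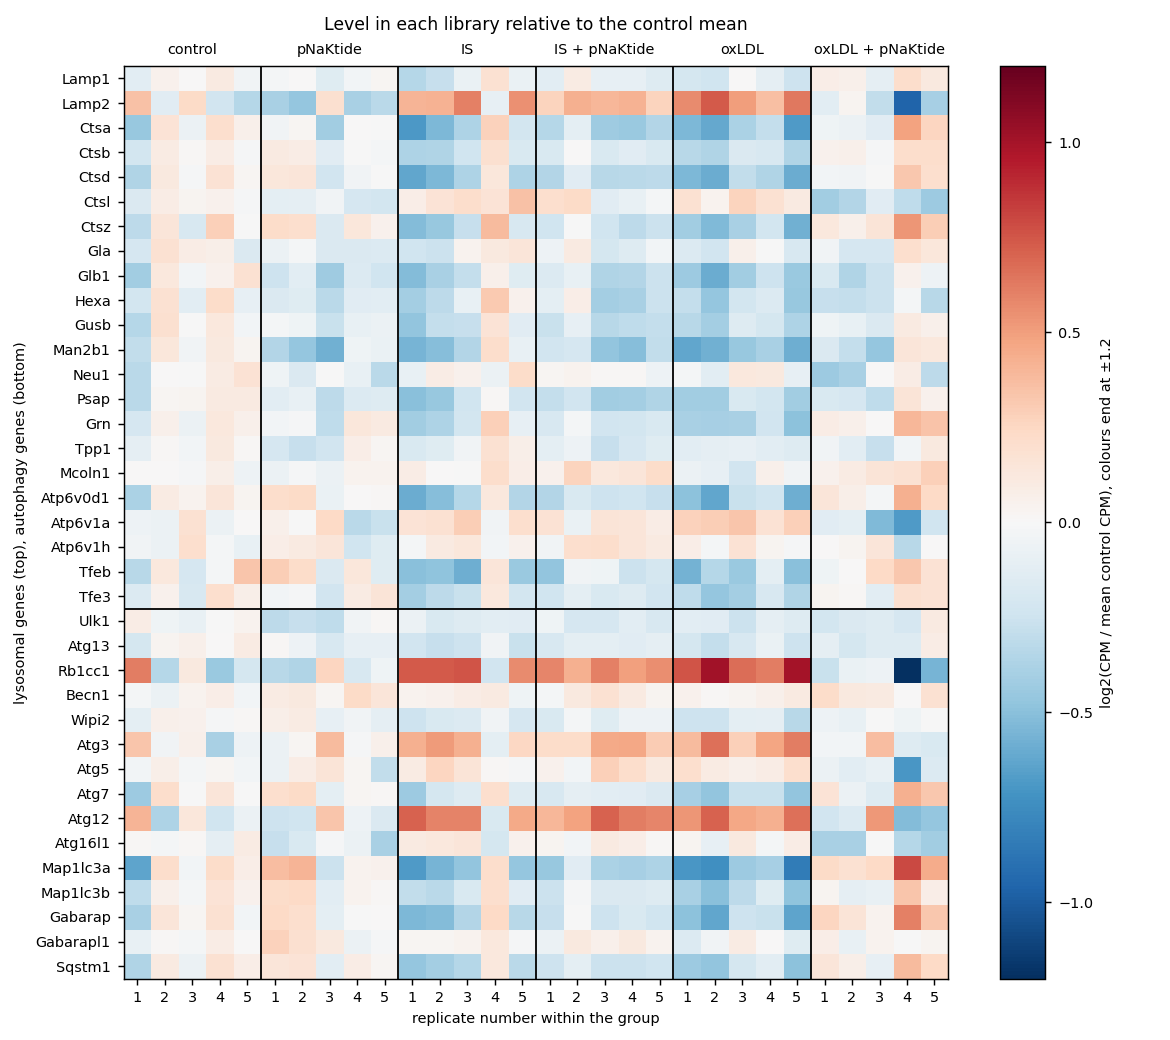
Colour gives the log2 ratio of CPM in each of the 30 libraries (x axis, by group and replicate) to the control mean, for each of the 37 genes (y axis, lysosomal above, autophagy below), red above and blue below it. IS replicate 4 and control replicate 1 differ from the rest of their groups over many genes, and oxLDL + pNaKtide replicate 4 holds the darkest blue, Rb1cc1 at 10.4 CPM.

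On its own, pNaKtide changed no member past the threshold. In edgeR's test none of the 37 genes passed for pNaKtide against control, beside 0.00497% of all genes, 4 had an unadjusted p under 0.05 (Glb1, Man2b1, Ulk1 and Atg16l1; 6.12% of all genes), and DESeq2 called none (0.283%). Log2 fold changes lay between -0.29 for Man2b1 and 0.14 for Map1lc3a. Rb1cc1 was at 23.5, 23.0, 35.4, 25.9 and 28.6 CPM with pNaKtide alone, and Map1lc3a at 123, 126, 79.4, 97.4 and 98.1 CPM, replicate 3 being the one nearest to the oxLDL libraries in both. With IS + pNaKtide against IS, none passed in edgeR's test (0.0% of all genes) or in DESeq2 (0.0695%), none had an unadjusted p under 0.05 (2.8%), and the values lay between -0.15 for Ctsl and 0.16 for Tfeb. Rb1cc1 was at 44.5, 39.8, 45.1, 41.7 and 43.6 CPM with IS + pNaKtide, above the 25.3 CPM of IS replicate 4 and near the other IS libraries. Lamp2 was at 363, 407, 399, 403 and 363 CPM there, and Map1lc3a at 68.9, 86.4, 72.6, 71.7 and 73.2 CPM. Against control, IS + pNaKtide likewise changed none of the 37 genes in edgeR's test (0.358% of all genes), with 14 at an unadjusted p under 0.05 (20% of all genes) and 8 called by DESeq2 (7.38%). Without control replicate 1 and IS replicate 4, 25 passed there, 5 upregulated and 20 downregulated, beside 32.4% of all genes, among them Rb1cc1 (0.74), Atg12 (0.69) and Lamp2 (0.46) upregulated and Map1lc3a (-0.47) and Psap (-0.41) downregulated.

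Whether pNaKtide acted differently with oxLDL than without it was tested as the difference between its log2 fold changes. For 23 of the 37 genes the change with oxLDL differed from that in control cells, 16 toward higher and 7 toward lower values, beside 24.6% of all genes. The largest of each class were Man2b1 (0.70, edgeR adjusted p = 0.0247) and Lamp2 (-0.62, adjusted p = 0.0489) for the lysosome, and Map1lc3a (0.86, adjusted p = 0.0242) and Rb1cc1 (-1.09, adjusted p = 0.0246) for autophagy. Against the change in IS cells 22 differed, 14 toward higher and 8 toward lower values, beside 29.3% of all genes. Here Ctsz (0.69, edgeR adjusted p = 0.0133), Lamp2 (-0.84, adjusted p = 0.0119), Map1lc3a (0.99, adjusted p = 0.00965) and Rb1cc1 (-1.19, adjusted p = 0.0101) were the largest. After removal of the trend over length and GC content, 12 and 18 members differed, beside 9.97% and 16.6% of all genes, and Lamp2 turned to 0.20 and 0.03, neither called. Rb1cc1 was then at -0.21 and not called against control cells and at -0.30 and called against IS cells, and Ctsz at 0.22 and not called against IS cells, whereas Man2b1 (0.63) against control cells and Map1lc3a (0.27 and 0.36) against both remained called. Against control cells, library size scaling gave 9 toward higher and 9 toward lower values, beside 6.35% and 19.8% of all genes. Against IS cells it gave 8 and 10, beside 8.01% and 24.1%. With the close pairs of libraries summed, 12 members differed from control cells (10.3% of all genes) and 21 from IS cells (26.3%). Without control replicate 1 and IS replicate 4, 29 members differed from control cells (40.0% of all genes), the 23 earlier ones among them, and 19 from IS cells (24.3%), with Ctsb, Gusb and Atg16l1 lost. Without IS replicate 4 alone, Man2b1 (0.38), Tfe3 (0.29) and Sqstm1 (0.34) were also not called against IS cells. Without pNaKtide replicate 3 alone, 12 members differed from control cells (10.5% of all genes), and the calls lost were those of Lamp2, Ctsb, Ctsl, Gusb, Psap, Mcoln1, Atg3, Atg5, Atg7, Atg12 and Sqstm1. Without control replicate 4 or oxLDL + pNaKtide replicate 4 the count was 14 (14.1% and 12.5%), and without control replicate 2 it was 15 (15.6%). The call for Lamp2 against control cells was lost without control replicate 4 (-0.57), oxLDL + pNaKtide replicate 4 (-0.50) or pNaKtide replicate 3 (-0.48).

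Cells with oxLDL + pNaKtide differed from control cells in 3 of the 37 genes, all downregulated, beside 5.2% of all genes (2.04% upregulated, 3.16% downregulated). Ctsl changed by -0.32 (edgeR adjusted p = 0.026) and Atp6v1a by -0.32 (adjusted p = 0.0836), with the values given above. Atg16l1, which directs the conjugation enzymes to the membrane, was at 60.5, 58.7, 60.4, 55.4 and 64.0 CPM in control and at 45.5, 45.8, 59.7, 47.2 and 44.8 CPM with both agents. All but replicate 3 of the latter lay below control, and its log2 fold change was -0.30 (edgeR adjusted p = 0.0502). The groups did not overlap for Atp6v1a and Atg5, both lower, against 4.03% of all genes (1.83% above, 2.2% below). None of the 3 calls remained after removal of the trend over length and GC content, which instead called Hexa lower and Mcoln1, Becn1 and Gabarap higher, beside 9.58% of all genes. Only 1 member passed in the fits without control replicate 3 or 5 or replicate 4 or 5 of the group with both agents. Library size scaling called 7, all downregulated, beside 1.9% of all genes upregulated and 7.88% downregulated. DESeq2 called 6 members, Ctsl, Atp6v1a and Atg16l1 again and Mcoln1, Becn1 and Map1lc3a as upregulated. The share of all genes that it called is not given here.

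Other genes of the same pathways were listed by role, with earlier results of these data known, and counted in the same fit. There, 18.1% of all genes were upregulated and 18.0% downregulated by oxLDL, and 22.1% and 26.1% with pNaKtide. With oxLDL, 7 of 52 other lysosomal genes tested were upregulated, such as Cd164 (0.39) and Ctso (0.48), and 21 downregulated, such as Fuca1 (-0.58), a fucosidase, and Pla2g15 (-0.38), a phospholipase. Of 14 other V-ATPase genes Atp6ap2 was upregulated (0.60) and 6 were downregulated, such as Atp6v0a1 (-0.38). Of 40 other autophagy genes 8 were upregulated, such as the receptor Tax1bp1 (0.56), and 10 downregulated, such as Atg2a (-0.48), a lipid transfer protein. Of 22 genes of mTORC1 signaling at the lysosome 5 were upregulated, such as Rheb (0.48), and 7 downregulated, such as Lamtor1 (-0.44). With pNaKtide and oxLDL against oxLDL these lists had 17 upregulated and 18 downregulated (Fuca1 at 0.70, Asah1 at -0.48), 7 and 1 (Atp6v0c at 0.69, Atp6ap2 at -0.79), 11 and 17 (Atg2a at 0.66, Fundc1 at -0.74) and 7 and 8 (Lamtor5 at 0.52, Fnip1 at -1.14). When the trend over length and GC content was removed, the upregulation of Cd164 (-0.09), Ctso (-0.04), Atp6ap2 (0.05) and Tax1bp1 (0.10) by oxLDL was no longer called, whereas Rheb (0.26), Fuca1 (-0.41), Pla2g15 (-0.17), Atp6v0a1 (-0.32), Atg2a (-0.30) and Lamtor1 (-0.21) still were. In the comparison with pNaKtide, Atp6ap2 (-0.08) and Fnip1 (-0.18) were no longer called, whereas Fuca1 (0.55), Asah1 (-0.14), Atp6v0c (0.40), Atg2a (0.47), Fundc1 (-0.17) and Lamtor5 (0.30) were.

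Set against the promoters, the genes with CACGTG in a window did not share a direction. With oxLDL 2 of the 12 were upregulated (Atg3 and Atp6v1a), 5 downregulated (Atg7, Atp6v0d1, Ctsa, Ctsd and Glb1) and 5 not called, among them Lamp1 with its 4 copies. Of the 18 genes without it, 1 was upregulated (Lamp2) and 13 downregulated. With pNaKtide and oxLDL the counts were 7 upregulated and 4 downregulated of 12, and 11 and 1 of 18. Of all genes, oxLDL upregulated 18.1% and downregulated 18.0%, and pNaKtide with oxLDL 22.1% and 26.1%. After removal of the trend over length and GC content, the pNaKtide calls of Lamp1, Glb1, Mcoln1, Atg3, Atg5 and Ctsl, all with CACGTG, were lost. So were those of Psap and Lamp2, without it. The RefSeq starts of Atg7, Atp6v1a and Ctsl lie 27999, 446 and 370 bases inside the GENCODE starts of these genes.

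Levels of cell type markers were compared in the same groups, against 18.0% of all genes downregulated by oxLDL and 22.1% upregulated with pNaKtide. Of 10 adipocyte markers oxLDL downregulated 3, and pNaKtide with oxLDL upregulated 5 and downregulated none, with medians of the summed level of 15533 CPM in control (12827 to 16251), 13501 CPM with oxLDL (12225 to 16303) and 16304 CPM with both (15254 to 17385), so that the ranges overlapped. Of 8 preadipocyte markers oxLDL downregulated 2, with medians of 5334 CPM in control (4613 to 5887) and 4351 CPM with oxLDL (3755 to 4358). The median was 4341 CPM with oxLDL + pNaKtide, 3678 CPM with pNaKtide alone, 3221 CPM with IS and 3429 CPM with IS + pNaKtide. The summed level of the macrophage markers stayed between 3.81 and 7.03 CPM in all 30 libraries and that of 4 endothelial markers at or below 0.613 CPM. The part of the adipocyte and preadipocyte markers in the values of the 37 genes was not tested.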

How the data were processed

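RNA from 30 samples of 3T3-L1 cells was sequenced from a stranded mRNA library. The authors trimmed reads with Trimmomatic 0.38, aligned them with HISAT2 2.1.0 to GRCm38 and counted them per gene with GenomicAlignments, and used DESeq2 1.20.0 (submitters' processing notes and methods); how strand was set in the counting is not given in the sources used here. All tests used the deposited raw counts per gene. The authors also deposited counts divided by size factors, a normalized signal that was not used, and FPKM, used for levels between genes and in limma.

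Groups came from the sample labels. Of 54232 genes, the 20139 with more than 14 counts over all libraries were tested in edgeR 4.0.16 (R 4.3.3): TMM normalization, 1 robust quasi-likelihood fit over the 6 groups, 2-sided tests, BH adjustment over all genes tested, threshold 0.1. The common biological coefficient of variation was 14%. CPM were TMM-normalized. Alternatives were DESeq2 1.42.0, library size scaling, other filters, an adjusted p of 0.05, limma 3.58.1 on log2(FPKM + 1) with genes under a mean of 0.5 FPKM left out, a replicate block, offsets for each library's trend over gene length and GC content (mgcv 1.9.3), fits of the compared groups only, and leaving out each library. The trend used the GC content of protein-coding transcripts (GENCODE vM21), and that of the longest transcript was added after the data were seen. The fit was tested on simulated data. Pairs of libraries of a group were compared by a chi-square test of their counts. The lowest of 60 pairs had 1.28 per degree of freedom, above sampling noise. As 5 pairs were under 2, a fit with each of these summed to 1 library (25 libraries) was added after the data were seen. Overlapping genes are uncertain as the strand setting is unknown.

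The members and gene lists were chosen with earlier results of these data known. Values in every library are given for 11 genes named for their roles and, per comparison, for the called gene of each class with the largest change in each direction; from the lists of other pathway genes at most 2 called genes per direction with the smallest p are named. Lamp2, Rb1cc1, Map1lc3a, Sqstm1, Gabarap and Mitf were shown in further places after their values were seen. One result is not reported here.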

Additional observations from a re-analysis of the deposited data

Results flagged for a closer look

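In 31 of the 222 sets of 5 libraries (37 genes in 6 groups), 1 library lay farther from the others than Dixon's critical value of 0.71 of the range allows; chance would give about 1 set in 20, and the genes of a library are not independent. In control replicate 1, Psap at 1969 CPM, Atp6v0d1 at 308 CPM and Map1lc3a at 61.0 CPM lay below the other 4 libraries. In control replicate 3, Atp6v1a at 259 CPM and Atp6v1h at 153 CPM lay above the other 4 libraries. In pNaKtide replicate 3, Lamp2 at 346 CPM and Atg3 at 50.1 CPM lay above the other 4 libraries. In pNaKtide replicate 3, Ctsa at 251 CPM, Hexa at 231 CPM and Gusb at 121 CPM lay below the other 4 libraries. In IS replicate 4, Tfeb at 18.4 CPM, Atg13 at 84.0 CPM, Map1lc3a at 109.5 CPM, Gabarap at 459 CPM and Sqstm1 at 636 CPM lay above the other 4 libraries. In IS replicate 4, Lamp2 at 283 CPM, Rb1cc1 at 25.3 CPM and Atg16l1 at 51.6 CPM lay below the other 4 libraries. In IS + pNaKtide replicate 2, Lamp1 at 1100.2 CPM, Ctsb at 674 CPM, Ctsd at 677 CPM, Ctsz at 87.7 CPM, Gusb at 137 CPM, Grn at 371 CPM, Map1lc3a at 86.4 CPM and Sqstm1 at 536 CPM lay above the other 4 libraries. In oxLDL + pNaKtide replicate 3, Atg3 at 49.8 CPM and Atg16l1 at 59.7 CPM lay above the other 4 libraries. In oxLDL + pNaKtide replicate 4, Hexa at 284 CPM lay above the other 4 libraries. In oxLDL + pNaKtide replicate 4, Atg5 at 15.7 CPM lay below the other 4 libraries. In oxLDL + pNaKtide replicate 5, Ulk1 at 86.5 CPM lay above the other 4 libraries.

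The change with pNaKtide differed between oxLDL cells and control cells for 23 genes by edgeR's test of the difference (oxLDL minus control, log2), beside 24.6% of all genes. With the trend over length and GC content removed, 14 of these calls were lost, and Lamp2 and Ctsl turned sign. Before this, the difference was higher with oxLDL for Ctsa (0.69), Ctsb (0.38), Ctsd (0.56), Ctsz (0.57), Glb1 (0.50), Gusb (0.37), Man2b1 (0.70), Psap (0.40), Grn (0.58), Mcoln1 (0.24), Atp6v0d1 (0.53), Tfe3 (0.40), Atg7 (0.45), Map1lc3a (0.86), Gabarap (0.66) and Sqstm1 (0.43). It was lower with oxLDL for Lamp2 (-0.62), Ctsl (-0.35), Atp6v1a (-0.55), Rb1cc1 (-1.09), Atg3 (-0.56), Atg5 (-0.33) and Atg12 (-0.62). Between oxLDL cells and IS cells it differed for 22 genes (oxLDL minus IS, log2), beside 29.3% of all genes. With that trend removed, 7 of these calls were lost, and Lamp2 and Ctsl again turned sign. Before this, it was higher with oxLDL for Ctsa (0.67), Ctsb (0.34), Ctsd (0.53), Ctsz (0.69), Gusb (0.34), Man2b1 (0.52), Grn (0.59), Atp6v0d1 (0.56), Tfe3 (0.38), Atg7 (0.54), Map1lc3a (0.99), Map1lc3b (0.43), Gabarap (0.65) and Sqstm1 (0.45). It was lower with oxLDL for Lamp2 (-0.84), Ctsl (-0.33), Atp6v1a (-0.53), Rb1cc1 (-1.19), Atg3 (-0.50), Atg5 (-0.36), Atg12 (-0.77) and Atg16l1 (-0.31).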

How the results depend on the processing

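The counts of members called, of 37, are given for each setting that moved them by more than 1.5 times. Where no share of all genes stands beside a count, the count is no result about the members. For oxLDL against control this was GC content of the longest transcript alone (15, against 25). For IS against control, against 2, DESeq2 gave 13, library size 6, more than 14 counts in every library 11, edgeR's own filter 11, at least 1 count 0, an adjusted p of 0.05 0, limma 7, the length and GC offsets 1 (Mcoln1, neither of the 2), the longest transcript 0, the compared groups alone 0, and omission of control 1 and IS 4 25. Of all genes, 7.94% were called in the main fit, 12.6% with library size, 4.18% with the offsets and 45.4% with that omission. For oxLDL + pNaKtide against control, against 3, the same order of settings gave 6 with DESeq2, 7 with library size, 5 with counts in every library, 1 with at least 1 count, 1 at 0.05, 5 with limma and 0 with the compared groups alone. Here 5.2% of all genes were called in the main fit and 9.77% with library size. For IS + pNaKtide against control, against 0, DESeq2 gave 8, counts in every library 1, the offsets 3, the longest transcript 2, the compared groups 4 and omission of both libraries 25. The share of all genes was 0.358% in the main fit, 2.19% with the offsets and 32.4% with that omission. For the difference between oxLDL and control in the change with pNaKtide, against 23, an adjusted p of 0.05 gave 15, the offsets 12 and the longest transcript 14. Of all genes, 24.6% were called for it in the main fit and 9.97% with the offsets. Leaving out single libraries gave 22 to 26 for oxLDL against control, 0 to 24 for IS against control, 1 to 4 for oxLDL + pNaKtide against control, 0 to 14 for IS + pNaKtide against control, 26 to 29 for oxLDL + pNaKtide against oxLDL, 12 to 28 and 16 to 23 for the differences to control and to IS, 25 to 29 among the 6 groups, and 0 for pNaKtide against control and for IS + pNaKtide against IS. The count of 12 came without pNaKtide replicate 3, 15 without control replicate 2, and 14 without control replicate 4 or oxLDL + pNaKtide replicate 4. The count of 14 for IS + pNaKtide came without control replicate 1. Except where stated, the cause was not tested.

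Same-numbered libraries of different groups had correlations of their deviations from -0.661 to 0.743, of which 18 of 35 were above 0.1. These values do not settle whether the numbers pair the samples. A replicate block gave 13 members for IS against control and 5 for IS + pNaKtide against control, and left the others within 1.5 times (26 for oxLDL against control, 29 for oxLDL + pNaKtide against oxLDL). The block with the length and GC offsets gave 6 for oxLDL + pNaKtide against control, 4 for IS + pNaKtide against control and 14 for the difference to control. The shares of all genes called with the block are not given here, so these counts are no result about the members.

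Signs turned with the offsets, and alike with the block added, for these log2 values. For oxLDL against control they were Lamp2 (-0.12 and -0.12) and Gabarapl1 (0.17 and 0.17). For oxLDL + pNaKtide against oxLDL they were Lamp2 (0.072 and 0.074), Hexa (-0.25 and -0.25), Psap (-0.00038 and -0.0018), Atp6v1h (0.42 and 0.42), Ulk1 (-0.17 and -0.17) and Gabarapl1 (-0.21 and -0.21). For the difference to control they were Lamp2 (0.20 and 0.20) and Ctsl (0.026 and 0.013), and for that to IS Lamp2 (0.026 and 0.029) and Ctsl (0.090 and 0.079). With library size, oxLDL + pNaKtide against oxLDL turned for Tpp1 (-0.17), Ulk1 (-0.20), Atg13 (-0.13), Becn1 (-0.15), Wipi2 (-0.056) and Gabarapl1 (-0.16).

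The fewest counts over all libraries were those of Tfeb (5245), Atg5 (9210) and Gla (12166). With the 5 close pairs of libraries summed, IS against control gave 0 members and the difference to control 12, and the other counts stayed within 1.5 times.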

Other observations

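Among other genes of these pathways, cells with oxLDL + pNaKtide had less Ctsk (log2 fold change -0.67, edgeR adjusted p = 0.00952), a cathepsin of collagen breakdown, and less Arsb (-0.46, adjusted p = 0.0111), a sulfatase, than control cells. In all, 7 of the 52 other lysosomal genes tested and 5 of the 40 other autophagy genes were downregulated in that comparison, and none was upregulated, beside 3.16% of all genes downregulated and 2.04% upregulated. With IS against control, 2 other lysosomal genes were upregulated, Ctso (0.63) and Slc17a5 (0.33), and 4 downregulated, such as Ctsh (-0.53), beside 7.94% of all genes, while Atp6ap2, a V-ATPase accessory subunit, was upregulated (0.60, edgeR adjusted p = 0.0443). Atp6ap2 was also upregulated with IS + pNaKtide (0.56, edgeR adjusted p = 0.0882), and was the only called gene of these lists there. With the close pairs of libraries summed, 2 of the 20139 genes tested were called for IS against control and 0 for IS + pNaKtide against control. Most of these calls for IS and the call for IS + pNaKtide were thus lost in that fit. With the trend over length and GC content removed, Ctso (0.24), Slc17a5 (0.16) and Ctsh (-0.51) were not called for IS, whereas Atp6ap2 (0.19 with IS, 0.22 with IS + pNaKtide), Ctsk (-0.70) and Arsb (-0.37) were.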
